A study of Mus musculus with 12 samples.

Results

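The synaptotagmins are a family of membrane trafficking proteins, and 10 of their genes were followed here at the transcript level: Syt1, Syt2, Syt3, Syt4, Syt5, Syt6, Syt7, Syt9, Syt11 and Syt17. They were taken by symbol from a table of exon counts with 23893 genes and were chosen on earlier results of the same libraries, in which the long gene Syt1 stood against its shorter relatives. The values below therefore describe these genes, and the p-values are those of fits over the whole table, not independent evidence for this choice. The cultures came from mouse cortex at embryonic day E13.5 to E15.5 (strain C57BL6 by the labels, C57BL6/J in their growth protocol), and all 12 of them carried the Top1 fl/fl allele. WT cultures were infected at day in vitro (DIV) 3 with a lentivirus for the red fluorescent protein tdTomato, and Top1 cKO cultures with one for tdTomato and the recombinase CRE, which removes the floxed exon of Top1. In both vectors the transgene was driven by the neuronal CaMKIIα promoter, and 85 to 90% of cells are stated to have been transduced, so a Top1 cKO culture can hold cells without CRE. At DIV 15 the cells received 300 nM topotecan (Topot) or 0.003% DMSO as vehicle (Veh) for 3 days, which gave the groups WT-Veh and WT-Topot, and likewise Top1 cKO-Veh with Top1 cKO-Topot, of 3 libraries each. Topotecan traps TOP1, the enzyme that relaxes DNA ahead of the transcribing polymerase, on the strand it has cut, whereas CRE removes the enzyme. No source used here says what a replicate number stands for. The p-values therefore measure the spread between these libraries, with variance estimates shared over genes.

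Most synaptotagmins are anchored in a vesicle or cell membrane and carry a pair of C2 domains. In the classic members these domains bind calcium and then membrane lipids and the SNARE proteins that fuse vesicles with the cell surface. Syt1, Syt2 and Syt9 are the calcium sensors of fast transmitter release, and Syt1 is the main one of forebrain neurons. Syt7 binds calcium more tightly and serves slow release and facilitation, Syt3 is another high-affinity sensor that acts in glutamate receptor uptake, and Syt6 is known from the release of the sperm acrosome. Syt4 and Syt11 carry a substitution in the first C2 domain that weakens its calcium binding, and Syt4 is also an activity-induced gene whose product sits on dense-core vesicles. Syt17 is the atypical member, with no membrane-spanning segment.

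The members differed far more in the length of their genes than in the length of their coding sequence. In the GENCODE vM1 annotation of NCBIM37, the assembly that mm9 names, Syt1 lay on the minus strand at chr10:107934706-108448038. Its span was 513.3 kb. The transcript with its longest coding sequence (1263 nt) was 99.1% intron, with a longest intron of 140 kb. Syt2 coded for almost the same length (1266 nt) within 43.85 kb on chromosome 1. Syt9, the second longest member, spanned 177.9 kb on chromosome 7 for 1473 nt. Syt17 (61.7 kb, 1410 nt) lay on the minus strand at chr7:125525370-125587066. Of the rest, Syt11 spanned 87.6 kb, Syt6 70.34 kb, Syt7 64.09 kb, Syt3 16.09 kb and Syt5 6.8 kb. The 250 bases before the annotated starts of Syt1 and Syt17 are shown because these genes gave the largest differences of the family in opposite directions; capitals mark CG dinucleotides.
Syt1 (NCBIM37, chr10:108448039-108448288, minus strand): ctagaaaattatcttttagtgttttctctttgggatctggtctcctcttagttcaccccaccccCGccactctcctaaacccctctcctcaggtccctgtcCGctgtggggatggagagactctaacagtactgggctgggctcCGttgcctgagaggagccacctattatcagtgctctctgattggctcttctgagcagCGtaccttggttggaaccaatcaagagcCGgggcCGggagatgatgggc
Syt17 (NCBIM37, chr7:125587067-125587316, minus strand): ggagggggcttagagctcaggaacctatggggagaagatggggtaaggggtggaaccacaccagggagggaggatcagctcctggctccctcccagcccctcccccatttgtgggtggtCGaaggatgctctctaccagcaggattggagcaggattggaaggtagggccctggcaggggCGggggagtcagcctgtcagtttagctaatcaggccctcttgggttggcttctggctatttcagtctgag
The Syt1 window held 6 CG dinucleotides and the Syt17 window 2, below the median of 8 over 22375 windows of this kind. Among the other windows reported, that of Syt3 held 5, Syt11 8, Syt6 11, Syt5 16, Syt2 22, Syt9 34 and Syt7 37. Whether these numbers go with the changes read out below was not tested. The letters TATAAA, found on either strand in 12.3% of all windows, and TGACGTCA, found in 1.91%, were in none of the 9 member windows reported. The window of Syt4 is not reported here. GGGCGG, in 39.6% of all windows, was present 1 time before Syt17 and absent before Syt1. These are matches of letters only.

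Each library held 1730164 to 4583777 counts. Top1, the targeted gene, was at 117 to 163 CPM (counts relative to the size of the library, scaled by the TMM method) in the 6 WT libraries and at 27.1 to 44.0 CPM in the 6 Top1 cKO libraries, as the labels say. Same-numbered libraries of different groups deviated together, so values of a paired fit (replicate block) are added where a synaptotagmin call changed. Markers of the labelled cell type were present, with none at 0. The summed level of 6 markers of excitatory projection neurons was 2459 to 2683 CPM in WT-Veh, 2779 to 3191 CPM with topotecan, 2619 to 2649 CPM with the deletion and 2250 to 2531 CPM with both, and that of 6 pan-neuronal markers 3878 to 5468, 3524 to 4247, 4422 to 5754 and 4387 to 5539 CPM. In WT-Topot against WT-Veh, 1 excitatory marker was higher (Tbr1, 1.12 on the log2 scale; 3 higher with the block) and 1 pan-neuronal marker lower (Rbfox3, −0.96; 3 lower and 1 higher with the block). Of all genes, 2.04% were lower and 0.682% higher in that comparison, and 5.0% and 3.24% with the block. At an unadjusted p under 0.05 the shares were 7.18% and 5.88%. Astrocyte markers were present as well. The summed level of 8 astrocyte markers, none of them at 0, was 2370 to 4826 CPM (WT-Veh), 1087 to 1836 CPM with topotecan, 2685 to 6145 CPM with the deletion and 1686 to 3110 CPM with both, and 3 of the 8 (Gfap, Slc1a2 and Slc1a3) were lower in WT-Topot against WT-Veh. With the block, 5 astrocyte markers were lower in that comparison, beside 5.0% of all genes. In Top1 cKO-Topot, 4 were lower against WT-Veh, beside 4.02%, and 5 against Top1 cKO-Veh, where the share of all genes is not given here. Interneuron markers (10 genes, none at 0) summed to 814 to 1780, 576 to 1055, 1238 to 1451 and 944 to 1392 CPM in the same order, and in WT-Topot against WT-Veh 5 were lower and 2 higher with the block, where 0 passed without it (5 lower and 2 higher at an unadjusted p under 0.05). The markers named here were picked after their values were seen. Markers of the oligodendrocyte lineage reached at most 297 CPM and those of microglia at most 20.2 CPM, with Itgam, a microglial gene, at 0 in Top1 cKO-Topot. The part that cell composition plays in the synaptotagmin values was not tested, and in these bulk cultures fewer cells of a type and less RNA per cell cannot be told apart.

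In WT-Veh cultures, 3 members made up most of the family's RNA per length of transcript. The divisor was the exon length of coding transcripts in GENCODE vM1, while the counts were over RefSeq exons. The order per kb therefore depends on that annotation. On this scale, Syt1 stood at 338 ± 46.5 CPM per kb (mean ± SD, n = 3 here and below), Syt4 at 320 ± 51.4 and Syt11 at 224 ± 26.0. Syt1 and Syt4 overlapped within their spread, and Syt11 lay below both. The next level held Syt5 at 69.5 ± 5.48 and Syt7 at 59.7 ± 8.32 CPM per kb, which again overlapped. Syt3 (15.8 ± 2.81), Syt9 (12.7 ± 2.93), Syt17 (6.77 ± 1.58) and Syt6 (4.34 ± 1.14) followed. Syt2, the close relative of Syt1, was at 0.557 ± 0.141 CPM per kb and rested on 3 to 17 counts per library across all groups, so only large changes of it could have been seen. In WT-Topot the order changed at the top: Syt4 stood at 251 ± 4.72 and Syt11 at 231 ± 22.7 CPM per kb, and Syt1, at 56.3 ± 12.3, lay in the range of Syt5 (72.1 ± 5.80) and Syt7 (54.3 ± 8.53). Syt1, Syt4 and Syt11 were at 205, 205 and 201 CPM per kb in Top1 cKO-Veh. The level of Syt1 was 80.2 ± 3.33 CPM per kb in Top1 cKO-Topot, where Syt4 was at 241 ± 31.1.

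**Figure D1:**
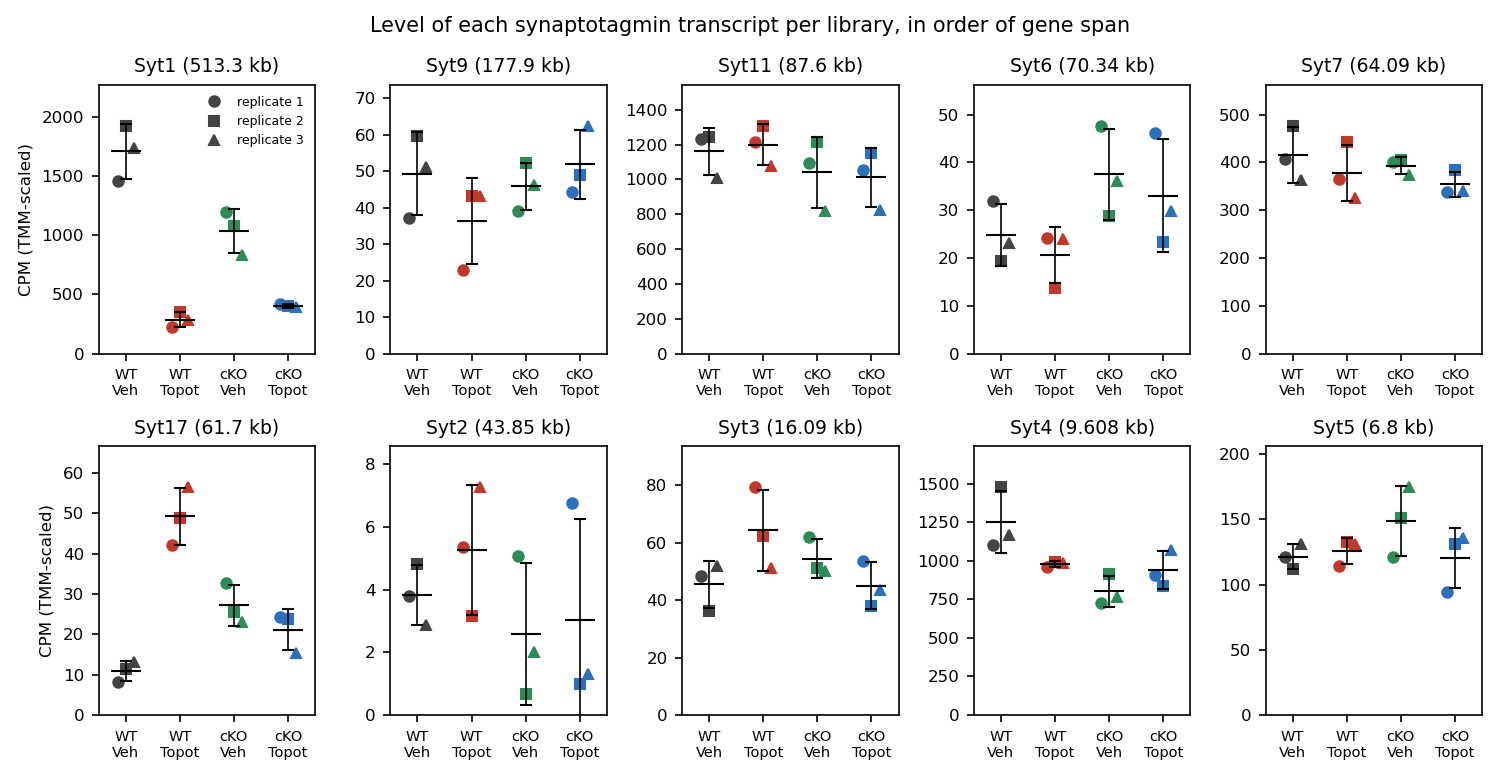
CPM (TMM-scaled, linear axes from 0) of each of the 10 synaptotagmins in every library, with 1 panel per gene in order of gene span; marker shapes give the replicate number and black bars the mean ± SD of 3 libraries (bars that would pass below 0 are cut there). Syt1 forms 4 separate levels from 284 to 1706 CPM on average, Syt17 is highest in WT-Topot (42.2 to 56.5 CPM), and most other panels overlap between groups.

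Syt1, the sensor of fast release, lost most of its transcript under topotecan and less of it after Top1 deletion. Its level was 1458, 1925 and 1736 CPM in the WT-Veh libraries 1 to 3. It was 223, 347 and 282 CPM in WT-Topot, 1194, 1077 and 832 CPM in Top1 cKO-Veh, and 422, 404 and 389 CPM in Top1 cKO-Topot. No library of a group reached into another group, and the order from high to low was WT-Veh, Top1 cKO-Veh, Top1 cKO-Topot, WT-Topot. The log2 fold change of WT-Topot against WT-Veh was −2.58 (SE 0.189), a level 5.99-fold lower (adjusted p = 6.57e-08, edgeR's quasi-likelihood test). Top1 cKO-Veh against WT-Veh gave −0.72 (SE 0.174), or 1.65-fold lower, which missed the threshold of 0.01 (adjusted p = 0.0777) and passed it with the replicate block (−0.73, SE 0.0900, adjusted p = 1.65e-13). Syt1 was lowered by topotecan in Top1 cKO cultures too. Against Top1 cKO-Veh, the change in Top1 cKO-Topot was −1.34 (SE 0.159, 2.53-fold, adjusted p = 0.00324 by edgeR). That call was lost when weakly counted genes were removed (adjusted p = 0.0405) and without replicate 2 of Top1 cKO-Topot (adjusted p = 0.0177), with log2 fold changes of −1.35 and −1.34. Top1 cKO-Topot against WT-Veh gave −2.05 (SE 0.167, adjusted p = 2.60e-07), and WT-Topot against Top1 cKO-Veh −1.87 (SE 0.187, adjusted p = 2.72e-05). The effect of topotecan was 1.23 (SE 0.243) log2 units weaker in Top1 cKO than in WT cells by the interaction term, just outside the threshold (adjusted p = 0.0110) and inside it with the replicate block (1.24, adjusted p = 4.39e-08).

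Syt17, the member without a membrane-spanning segment, ran the other way in WT cells. It was counted thinly in WT-Veh, at 8.19, 11.4 and 13.2 CPM from 28, 26 and 23 counts. The 3 WT-Topot libraries held 42.2, 48.9 and 56.5 CPM, and the Top1 cKO-Veh libraries 32.8, 25.6 and 23.0 CPM. Top1 cKO-Topot libraries were at 24.3, 23.9 and 15.3 CPM, overlapping with Top1 cKO-Veh and with no other group. Syt17 rose in WT-Topot by 2.20 log2 units (SE 0.271, 4.60-fold, adjusted p = 2.53e-05 by edgeR). In Top1 cKO-Veh against WT-Veh the log2 fold change was 1.34 (SE 0.301, 2.53-fold), past the threshold with the replicate block (1.36, adjusted p = 2.12e-06) and by edgeR's exact test (adjusted p = 0.00952) but not without them (adjusted p = 0.0525). Top1 cKO-Topot against WT-Veh gave 1.00 (SE 0.328, adjusted p = 0.106; 0.00921 with the replicate block). In Top1 cKO cells the effect of topotecan on Syt17 was −0.34 (SE 0.269), short of the threshold, and the interaction term was −2.55 (SE 0.370, adjusted p = 0.00107 by edgeR). WT-Topot exceeded Top1 cKO-Veh by 0.85 (SE 0.226, adjusted p = 0.0467; 0.000862 with the block). The exons of Syt17 shared no base with another annotated gene.

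Syt4, on a gene of 9.608 kb, gave its lowest levels in Top1 cKO-Veh. Its libraries were at 1105, 1479 and 1166 CPM in WT-Veh, at 959, 994 and 987 CPM in WT-Topot, at 724, 914 and 767 CPM in Top1 cKO-Veh and at 910, 837 and 1073 CPM in Top1 cKO-Topot. WT-Veh lay above every library of the other groups, and Top1 cKO-Topot overlapped both WT-Topot and Top1 cKO-Veh, which did not overlap each other. Top1 cKO-Veh against WT-Veh gave −0.64 (SE 0.168, 1.56-fold lower, adjusted p = 0.115 by edgeR), and with the replicate block Syt4 fell by 0.64 (adjusted p = 1.12e-09). For WT-Topot against WT-Veh the values were −0.35 (SE 0.160, adjusted p = 0.353) and, with the block, −0.33 (adjusted p = 0.00769). WT-Topot was above Top1 cKO-Veh by 0.29 (SE 0.145, adjusted p = 0.468; 0.00805 with the block). The interaction term was 0.58 (SE 0.212, adjusted p = 0.312; 0.00224 with the block). Exons of Syt4 share 575 bases with the noncoding gene Gm16871 on the opposite strand, and whether counting used strand is not given in the sources used here.

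The 2 other sensors of fast release did not follow Syt1 past the threshold. Syt9 was at 37.2, 59.6 and 51.3 CPM in WT-Veh and at 22.8, 43.2 and 43.2 CPM in WT-Topot, with overlapping groups and a log2 fold change of −0.43 (SE 0.264, adjusted p = 0.607). Its other group means were 45.8 ± 6.56 CPM in Top1 cKO-Veh and 51.8 ± 9.52 CPM in Top1 cKO-Topot. Syt2 averaged 2.59 to 5.26 CPM per group, and its standard errors of 0.483 to 0.787 log2 units between pairs of groups were the widest of the 10.

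Syt7, the slow sensor, and Syt11, the relative of Syt4, differed least between groups. Syt7 ranged from 325 to 477 CPM over the 12 libraries with log2 fold changes of −0.21 to −0.06 over the 5 pairs of groups, and Syt11 from 816 to 1309 CPM with −0.18 to 0.20. Both overlapped between all groups. Exons of Syt7 share 384 bases with the noncoding gene Gm17289 on the opposite strand.

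No difference of Syt3, Syt5 or Syt6 passed the threshold without the block. Syt3 was highest in WT-Topot, at 79.4, 62.4 and 51.4 CPM against 48.3, 36.4 and 51.8 CPM in WT-Veh, a log2 fold change of 0.51 (SE 0.223, adjusted p = 0.300) with groups that overlapped. Syt5 was at 121 ± 9.57 CPM in WT-Veh and 149 ± 27.1 CPM in Top1 cKO-Veh, and no comparison of it passed the threshold. Syt6 gave 0.58 (SE 0.276, adjusted p = 0.576) in Top1 cKO-Veh against WT-Veh. It separated WT-Topot (24.1, 13.7 and 24.0 CPM) from Top1 cKO-Veh (47.7, 28.9 and 36.1 CPM) without overlap. That difference was −0.86 (SE 0.276, adjusted p = 0.116 by edgeR) and −0.89 with the replicate block (adjusted p = 0.00083). Exons of Syt6 share 503 bases with the pseudogene Atg4a-ps on the opposite strand.

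Counted over the family, few members passed the threshold (adjusted p under 0.01, Benjamini-Hochberg over all 23893 genes). Of these genes, 5182 had no count in any library and 13720 averaged 1 CPM or more, while all 10 members had counts. Shares of all 23893 genes, here and elsewhere, are therefore lower than shares of the counted genes would be. In WT-Topot against WT-Veh, 1 of the 10 was lower (Syt1) and 1 higher (Syt17), where 2.04% of all genes were lower and 0.682% higher; with the block 2 were lower (Syt1 and Syt4) and 1 higher, beside 5.0% and 3.24% of all genes. At an unadjusted p under 0.05 the members were 2 lower (Syt1 and Syt4) and 2 higher (Syt3 and Syt17), where 7.18% and 5.88% of genes were. The members' median log2 fold change was −0.04 and that of all genes averaging 1 CPM or more was 0.03. In Top1 cKO-Veh against WT-Veh, 0 members passed by edgeR's quasi-likelihood test, where 0.126% of genes were lower and 0.0460% higher. An unadjusted p under 0.05 was reached by 2 lower members (Syt1 and Syt4) and 1 higher (Syt17), beside 4.82% and 3.90% of genes. The exact test of edgeR called 1 higher (0.511% of genes lower, 0.155% higher) and DESeq2 called 0 (1.40% and 0.551% of the 11439 genes with an adjusted p). With the block 2 were lower and 1 higher beside 2.95% and 2.60% of genes.

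The other comparisons were counted in the same way. For Top1 cKO-Topot against WT-Veh, Syt1 alone was lower and 0 were higher (1.21% and 0.473% of genes), with 2 lower and 1 higher at an unadjusted p under 0.05 (7.22% and 6.25%), and the block added Syt17 as higher (4.02% and 3.34%). For Top1 cKO-Topot against Top1 cKO-Veh without the block, Syt1 was 1 of the 2 genes lower in the whole table, or 0.00837%. In that fit 0 genes were higher (0%), with 1 member lower and 0 higher at an unadjusted p under 0.05 (2.62% and 1.69%). With the block Syt1 was again the only member called, but genes outside the family passed too. They included 5 astrocyte markers lower and 2 oligodendrocyte lineage markers higher. The share of all genes with the block is not given here for this pair. For WT-Topot against Top1 cKO-Veh, Syt1 was lower (1.23% of genes lower, 0.293% higher), and with the block Syt1 and Syt6 were lower and Syt4 and Syt17 higher (4.80% and 2.93%). By the interaction term Syt17 was 1 of 9 negative genes (0.0377%), while 0.398% were positive; with the block Syt17 was negative and Syt1 and Syt4 positive (1.53% and 2.44%). WT-Veh enters 3 of the 5 pairs, so these lists share libraries.

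**Figure D2:**
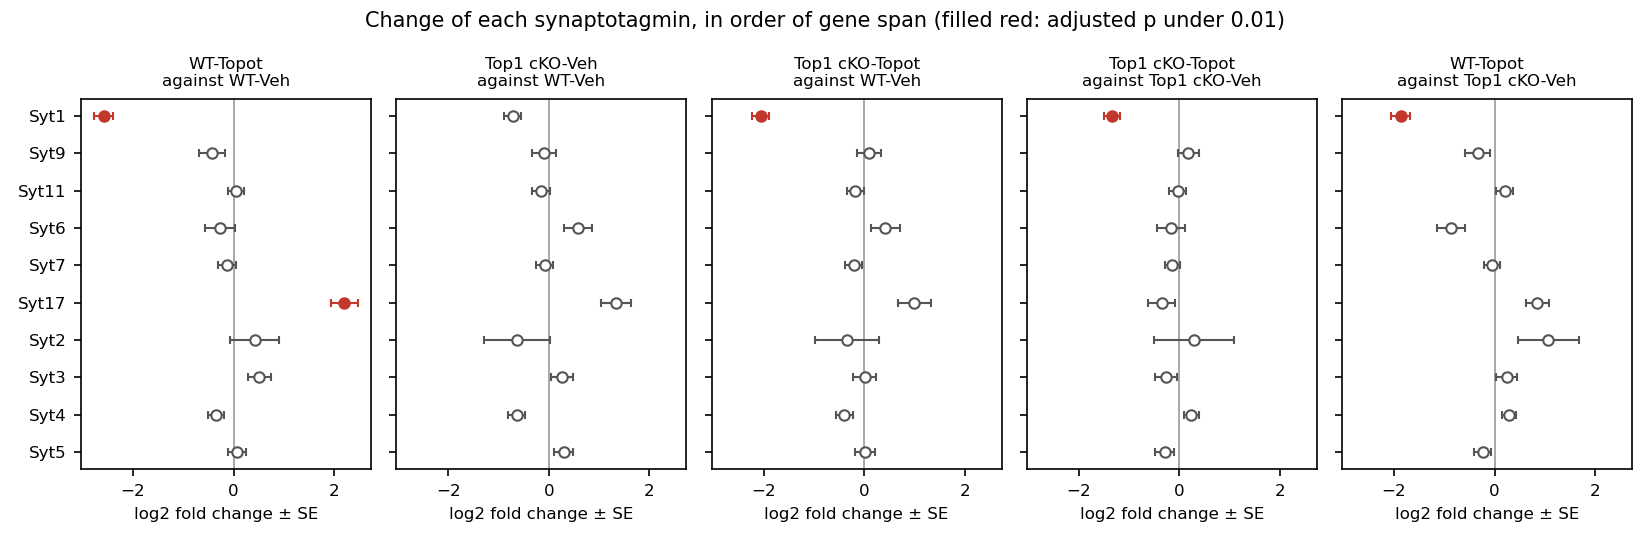
Log2 fold change ± SE of the 10 members in the 5 pairs of groups, from fits of 6 libraries each without a replicate block, in order of gene span from top to bottom; filled red points have an adjusted p under 0.01. Syt1 is at the left in each panel (−2.58 to −0.72), and Syt17 is at the right wherever a treated or deleted group is compared with WT-Veh (1.00 to 2.20).

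Syt1 was the longest of the 10 genes and gave the lowest fold change of them in all 5 pairs of groups. In Top1 cKO-Veh against WT-Veh that rank lay within the standard errors. There Syt1 gave −0.72 (SE 0.174), Syt4 (9.608 kb) −0.64 (SE 0.168) and the thinly counted Syt2 (43.85 kb) −0.64 (SE 0.657). Among 166 genes of 400 to 600 kb that averaged 1 CPM or more, the median log2 fold change of WT-Topot against WT-Veh was −1.57 (quartiles −2.07 and −1.01) and 59.0% were called lower at the threshold of 0.01. Syt1, at −2.58, lay below that lower quartile. In the same span class, Top1 cKO-Veh against WT-Veh had a median of −0.32 (quartiles −0.78 and 0.04). Syt1, at −0.72, lay between these quartiles. The median was −0.71 (quartiles −1.37 and −0.19) for Top1 cKO-Topot against WT-Veh, where Syt1 gave −2.05. For Top1 cKO-Topot against Top1 cKO-Veh it was −0.41 (quartiles −0.72 and −0.15), where Syt1 gave −1.34. Syt1 lay below the lower quartile in both. The interaction term had a class median of 1.04 (quartiles 0.64 and 1.56), and Syt1, at 1.23, lay between them. Syt9 (−0.43) compares with a median of −0.21 among 1160 genes of 100 to 200 kb. The 8 members under 100 kb compare with a median of 0.08 among 10715 genes. Nearly equal spans went with unlike values: Syt7 (64.09 kb) gave −0.13 and Syt17 (61.7 kb) gave 2.20. Spearman's correlation of span with the change in WT-Topot was −0.56 over the 10 members and −0.40 over 9 without Syt1, and for Top1 cKO-Veh against WT-Veh it was −0.26 and 0.02. For Top1 cKO-Topot it was −0.03 and 0.33 against WT-Veh and −0.13 and 0.20 against Top1 cKO-Veh, and for WT-Topot against Top1 cKO-Veh −0.58 and −0.42; members share their libraries, and this is a description.

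**Figure D3:**
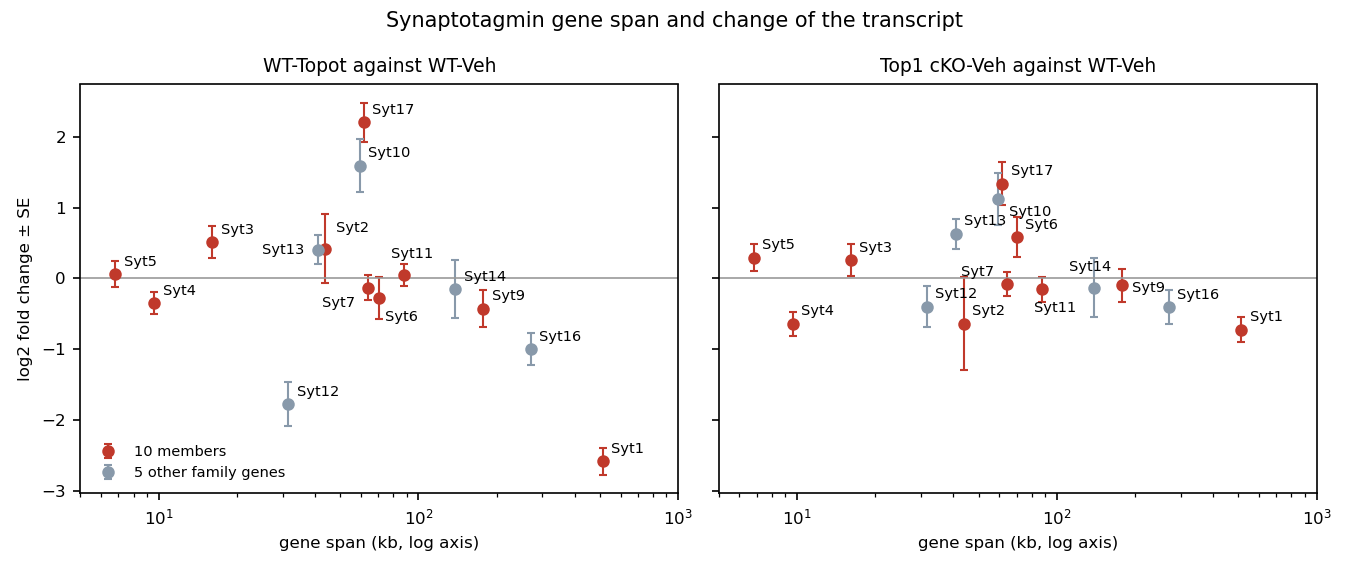
Log2 fold change ± SE against gene span (log axis, kb) for WT-Topot (left) and Top1 cKO-Veh (right), each against WT-Veh; red points are the 10 members and grey points 5 other family genes (Syt10, Syt12, Syt13, Syt14 and Syt16). Syt1 lies at the right end at −2.58 and −0.72, while genes between 30 and 100 kb spread from −1.77 (Syt12) to 2.20 (Syt17) on the left.

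Syt1 took a smaller part of the family's transcript pool in the treated and deleted groups. It made up 35.6 ± 2.75% of the summed CPM of the 10 members in WT-Veh (32.7 to 38.2%), 9.0 ± 1.51% in WT-Topot (7.31 to 10.2%), 28.7 ± 2.92% in Top1 cKO-Veh (26.7 to 32.1%) and 13.6 ± 0.454% in Top1 cKO-Topot (13.3 to 14.1%). The ranges of the 4 groups did not overlap. The other 9 members together stood at 3083 ± 327, 2860 ± 177, 2553 ± 279 and 2580 ± 57.7 CPM. The summed level of all 10 was 4789 ± 504 CPM in WT-Veh and 3144 ± 222 CPM in WT-Topot.

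**Figure D4:**
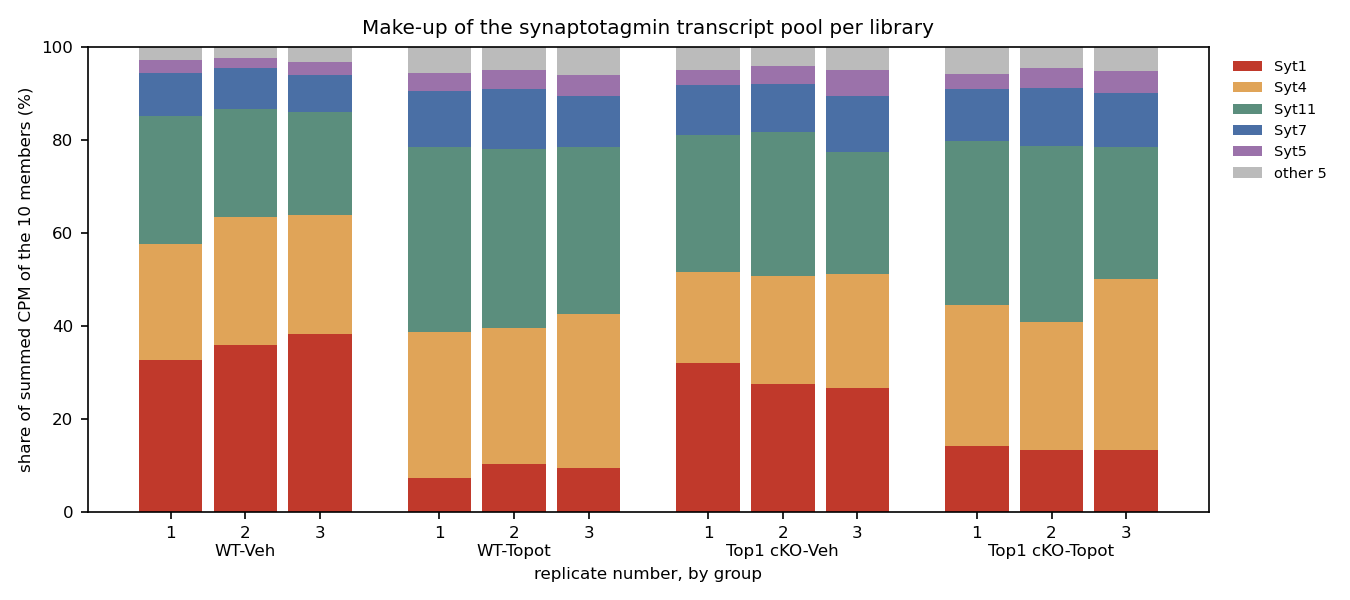
Share (%) of the summed CPM of the 10 synaptotagmins in each library, stacked, with replicate numbers and groups on the x axis; the grey part holds Syt2, Syt3, Syt6, Syt9 and Syt17. The Syt1 part at the base is 32.7 to 38.2% in WT-Veh and 7.31 to 10.2% in WT-Topot.

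The genes whose pattern was most like that of Syt1 were sought among 9506 genes that averaged 10 CPM or more, by Pearson's correlation of log2(CPM + 1) over the 12 libraries. They were Cadm2 (r = 0.992), Opcml (0.985), Gphn (0.984), Gpr158 (0.984) and Nrg3 (0.983). Cadm2 and Opcml code for adhesion molecules of the immunoglobulin superfamily, Gphn for the inhibitory scaffold gephyrin, Gpr158 for an orphan receptor and Nrg3 for a neuregulin. Cadm2, for example, averaged 717 CPM with vehicle and 37.5 CPM with topotecan among WT libraries, against 337 and 73.3 CPM among Top1 cKO libraries. Among the members, Syt7 was nearest to Syt1 (0.518) and Syt17 farthest (−0.715). The libraries of a group are not independent points here, so these are descriptions.

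Genes for proteins that work with synaptotagmins at the vesicle were read from a list with 30 genes in the table. Of these, 2 were lower and 1 higher in WT-Topot against WT-Veh, beside 2.04% and 0.682% of all genes (6 and 1 with the replicate block, beside 5.0% and 3.24%), with a median of −0.09 against 0.03 for all genes averaging 1 CPM or more. The lower ones were Rims1, an active zone scaffold (75.4 ± 8.41 to 12 ± 1.83 CPM, log2 fold change −2.65, SE 0.237, adjusted p = 7.40e-07), and Sv2b, a vesicle glycoprotein (−0.97, SE 0.198, adjusted p = 0.00439). Cplx2, a complexin that acts with Syt1 on the SNARE complex, rose by 0.81 (SE 0.170, adjusted p = 0.00584). The SNARE genes Snap25, Vamp2 and Stx1a gave −0.56 (adjusted p = 0.168), 0.10 and −0.06. Against Top1 cKO-Veh, 5 of the 30 were lower in WT-Topot, beside 1.23% of all genes: Rims1, Sv2c, Vamp1, Snap25 and Unc13a, named after their values were seen. With the block 11 were lower, beside 4.80%. Snap25 was at 947 ± 178 CPM in WT-Topot and 1863 ± 501 CPM in Top1 cKO-Veh there, a log2 fold change of −0.97 (SE 0.184, adjusted p = 0.00502).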

How the data were processed

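Paired-end reads of 50 bp were filtered (TagDust) and aligned to mm9 (TopHat) by the authors, who discarded rRNA reads and deposited a table of raw exon counts, summed by RefSeq gene symbol. The counting program, its use of strand and the RefSeq release are not given in the sources used here. From the deposited counts, the 6 libraries of each pair of groups were fitted in edgeR 4.0.16 (R 4.3.3; glmQLFit and glmQLFTest, TMM scaling, no gene filter), and the interaction of topotecan and Top1 deletion on all 12. P-values were adjusted by Benjamini-Hochberg over 23893 genes, with a threshold of 0.01. The fits without a block were tested for WT-Topot against WT-Veh and the interaction on simulated libraries drawn independently of each other. That test does not cover paired libraries or the fit with the block. Variance estimates were shared across genes, so the very small p-values with the block rest largely on that pooled variance. They are not a measure of the spread of a gene by itself. The members and gene lists were chosen with earlier results of these data known; all members are named, and from the lists of relatives and partners the genes called in WT-Topot against WT-Veh, with Snap25, Vamp2 and Stx1a; genes named outside this rule are said to be chosen after their values were seen. Replicate numbers were taken as pairing: over 13720 genes averaging 1 CPM or more, deviations from group means correlated at 0.261 to 0.485 in 18 same-numbered pairs of libraries and at −0.384 to −0.0494 in 36 others. No 2 libraries of a group were repeats (dispersion index 6.44 to 10.9). Gene spans (GENCODE vM1) matched 21013 symbols. At the shallowest depth of 1730164 counts, members at a few CPM rest on a few counts. Alternatives were the replicate block, RLE scaling, edgeR's expression filter, DESeq2 1.42.0, the exact test, 1 fit of all libraries, and leaving out each library.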

Additional observations from a re-analysis of the deposited data

Results flagged for a closer look

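Syt17 was singled out because the effect of topotecan differed between Top1 cKO and WT cells by a test of the difference itself. The interaction term was −2.55 log2 units (SE 0.370, adjusted p = 0.00107 by edgeR): Syt17 was 2.20 higher with topotecan in WT cells, where all 3 treated libraries lay above all 3 vehicle libraries, and −0.34 in Top1 cKO cells, where the groups overlapped. The group means were 10.9 CPM in WT-Veh, 49.2 CPM in WT-Topot, 27.2 CPM in Top1 cKO-Veh and 21.2 CPM in Top1 cKO-Topot. The drug effects thus start from unlike vehicle levels. In WT-Veh the gene rested on 23 to 28 counts per library.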

How the results depend on the processing

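With the replicate number as a block (paired fit), the number of synaptotagmins called went from 0 to 3 in Top1 cKO-Veh against WT-Veh, from 1 to 2 in Top1 cKO-Topot against WT-Veh, from 1 to 4 in WT-Topot against Top1 cKO-Veh and from 1 to 3 for the interaction; in Top1 cKO-Topot against Top1 cKO-Veh it stayed at 1. The exact test of edgeR called 1 in Top1 cKO-Veh against WT-Veh. For the interaction, RLE scaling and DESeq2 each called 2, and leaving out 1 library gave 1 to 2; Syt1 was the added gene without WT-Veh replicate 1, WT-Topot replicate 2 or Top1 cKO-Veh replicate 1. In Top1 cKO-Topot against Top1 cKO-Veh, the expression filter left 0 called, and leaving out 1 library gave 0 to 1, with 0 without Top1 cKO-Topot replicate 2. The cause was not tested. Per kb of exon, the share of Syt1 was 32.1% for WT-Veh, 25.3% for Top1 cKO-Veh and 11.7% for Top1 cKO-Topot. No called value changed sign under these alternatives. Of the values of single members under an alternative, 689 kept direction and side of the threshold, 16 newly passed it, 2 no longer did, and 50 uncalled values changed sign. Depth limits Syt2, with 3 to 17 counts per library, and Syt17 in WT-Veh.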

Other observations

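Outside the 10 members, the table held 7 further synaptotagmin genes, of which Syt8 had no count in any library and Syt15 averaged at most 0.549 CPM in a group. In WT-Topot against WT-Veh, 1 of the 7 was lower and 0 were higher by edgeR's quasi-likelihood test (2.04% and 0.682% of all genes), with 2 lower and 1 higher at an unadjusted p under 0.05 (7.18% and 5.88%) and likewise with the replicate block (5.0% and 3.24%). The lower one, Syt12, on a gene of 31.54 kb, was at 38.3 ± 17.0 and 11.2 ± 1.46 CPM in these groups (WT-Veh first), a log2 fold change of −1.77 (SE 0.314, adjusted p = 0.00121). It stood at 29.0 ± 3.19 CPM in Top1 cKO-Veh and 33.9 ± 7.19 CPM in Top1 cKO-Topot, and was −1.38 (SE 0.260, adjusted p = 0.00474) in WT-Topot against Top1 cKO-Veh. Syt10 and Syt16 are named after their values were seen. Syt10, a relative of Syt3 and Syt6 on a gene of 59.47 kb, was at 12.9 ± 5.95 CPM in WT-Veh and 39.5 ± 20.5 CPM in WT-Topot (1.59, SE 0.372, adjusted p = 0.0135; 3.51e-07 with the block). Syt16, the second longest family gene at 270.2 kb, was at 146 ± 49.4 and 72.8 ± 12 CPM (−0.99, SE 0.230, adjusted p = 0.0124; 9.43e-08 with the block). Genes of 200 to 300 kb had a median of −0.65 in that comparison.

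Of 12 relatives with C2 domains (synaptotagmin-like, Doc2, rabphilin and extended synaptotagmin genes), 0 passed edgeR's test in WT-Topot against WT-Veh, beside 2.04% of all genes lower and 0.682% higher. At an unadjusted p under 0.05, 2 were lower and 1 higher (7.18% and 5.88% of genes), and the block called 1 lower and 1 higher (5.0% and 3.24%). Of the 12, Sytl3 had no count in any library. Sytl1, Sytl4, Sytl5, Doc2g, Esyt1 and Esyt3, named after their values were seen, averaged at most 3.21 CPM in a group. Only large changes of these could have been seen. Doc2b, a calcium sensor of spontaneous release named after its values were seen, rose in Top1 cKO-Topot against WT-Veh by 1.12 (SE 0.222, adjusted p = 0.00456), and Rph3a (rabphilin, also named after its values were seen) was lower in WT-Topot against Top1 cKO-Veh (−0.72, SE 0.146, adjusted p = 0.00818).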
